A study of Mus musculus with 6 samples.

Results

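The clock output factors and REV-ERBs are 10 genes whose transcription is driven by the circadian clock and whose products pass its rhythm on to other genes, namely Dbp, Tef, Hlf, Nfil3, Nr1d1, Nr1d2, Ciart, Usp2, Bhlhe40 and Bhlhe41. All 10 were taken from a fixed list and found on the array through the RefSeq accessions of its probes, which gave 18 probes out of 56605 probes and 22911 named genes. Liver RNA of 6 male mice, 12 weeks old when the feeding began, was measured with 1 single-colour Agilent array per mouse. Control mice (n = 3) received granulated regular food only, and soy mice (n = 3) received a mix of 75% regular food and 25% soy bean powder, both for 28 days and on a light-dark cycle of 12 hours. The mice were biological replicates. Their strain and genotype are not given in the sources used here, nor is the hour at which the livers were taken. The arrays were spread over 3 slides, of which slide 1 carried control 1, control 2 and soy 1, slide 2 carried soy 2 alone, and slide 3 carried control 3 and soy 3. On control arrays 1, 2 and 3, the software of the scanner counted 37010, 36366 and 38163 spots as well above background, against 31308, 31988 and 32498 spots on soy arrays 1, 2 and 3. All soy counts were thus below all control counts, and the part of this in the results was not tested.

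In the core loop of the clock, the activators CLOCK and BMAL1 (the product of Arntl) bind E-boxes and drive the Per and Cry genes, whose products repress them. The same activators drive a second layer of factors. The PAR bZIP proteins DBP, TEF and HLF activate genes through D-boxes, and NFIL3 competes with them for the same element as a repressor. The REV-ERB receptors NR1D1 and NR1D2 bind elements that they share with the RORs and repress Arntl and other genes there, while CIART, BHLHE40 and BHLHE41 hold back transcription at E-boxes. USP2 removes ubiquitin from target proteins, clock proteins among them. In liver, the levels of many of these transcripts swing widely over the day, and the PAR bZIP factors are known for driving enzymes of drug and heme metabolism.

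The promoters were read for the elements through which these factors are linked. RefSeq promoter windows, from 250 bases before to 50 bases after a transcription start (assembly GRCm38.p6), were matched for 9 of the 10 genes and gave 10 windows, since Tef has a pair of starts; Bhlhe40 is named only. The E-box CACGTG, which reads the same on both strands, was present in 4 windows of 3 genes (Tef, Ciart and Bhlhe41) and in 7.15% of all 32851 promoter windows. An E-box variant, CACGTT on either strand, was present once, in Nr1d1, and in 4.68% of all windows. The D-box, spelled TTATGTAA or TTACGTAA on either strand, was in 0 of the 10 windows and in 1.06% of all. The element of the REV-ERBs and RORs, spelled TAGGTCA or TGGGTCA on either strand, was found once, in Nfil3, and in 6.45% of all windows. No match overlapped another. Of the 6 windows with a match, 4 are printed here, to show each kind of match in the genes of each role, and each gives the 250 bases before the start, 5′ to 3′, with the matches in capitals.
Ciart, chr3:95882229-95882478 (minus strand): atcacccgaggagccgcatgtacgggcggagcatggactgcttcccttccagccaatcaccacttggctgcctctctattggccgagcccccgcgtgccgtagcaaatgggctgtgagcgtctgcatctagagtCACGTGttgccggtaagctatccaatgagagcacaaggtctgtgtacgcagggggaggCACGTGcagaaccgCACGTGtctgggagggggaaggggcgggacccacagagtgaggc
Tef, chr15:81802423-81802672 (plus strand): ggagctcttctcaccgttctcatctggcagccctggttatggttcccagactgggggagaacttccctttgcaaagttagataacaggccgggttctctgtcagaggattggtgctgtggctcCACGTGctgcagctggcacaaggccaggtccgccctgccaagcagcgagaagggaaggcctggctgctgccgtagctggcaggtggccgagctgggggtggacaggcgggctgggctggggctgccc
Nr1d1, chr11:98775378-98775627 (minus strand): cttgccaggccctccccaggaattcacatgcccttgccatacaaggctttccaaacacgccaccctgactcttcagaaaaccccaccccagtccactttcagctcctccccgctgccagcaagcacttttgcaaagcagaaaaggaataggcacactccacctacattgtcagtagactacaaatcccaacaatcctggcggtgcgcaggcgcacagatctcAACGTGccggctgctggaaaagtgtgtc
Nfil3, chr13:52981040-52981289 (minus strand): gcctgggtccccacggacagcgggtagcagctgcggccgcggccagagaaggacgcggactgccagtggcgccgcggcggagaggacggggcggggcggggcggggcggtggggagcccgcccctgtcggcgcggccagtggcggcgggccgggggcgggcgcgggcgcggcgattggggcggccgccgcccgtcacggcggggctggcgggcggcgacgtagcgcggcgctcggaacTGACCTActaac
In Ciart the 3 E-boxes begin 116, 58 and 44 bases before the start, and in Tef the E-box begins 127 bases before it, or 138 bases before the other Tef start. The Bhlhe41 E-box, not printed, begins 153 bases before its start. The single Nr1d1 match is the variant read on the opposite strand (AACGTG), 28 bases before the start. In Nfil3 the receptor element is also read on the opposite strand (TGACCTA), 12 bases before the start. Such a match describes the letters of a window and was not tested as a binding site.

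Of the 10 genes, 9 were lower and 1 was higher in soy than in control livers on the brightest probe, the one with the highest mean signal. None of them passed the test. It was limma on normalized log2 signals, with the Benjamini-Hochberg adjustment over all 56605 probes, and the call required an adjusted p under 0.05 together with a fold above 1.5 or under 0.66. By this rule 0 of the 18 probes were called lower, beside 0.141% of all probes, and 0 were called higher, beside 0.208%. At an unadjusted p under 0.05, 11 of the 18 probes were lower (6.14% of all probes) and 0 were higher (5.34%). The soy values lay wholly below the control values for 6 of the 18 probes (10.3% of all probes) and wholly above them for 0 (7.73%). The Bhlhe41 probe counted among the 11 and the 6 had no soy array well above background, and without it the counts were 10 and 5. Probes of a gene were read in the same mice, so the 18 probes are not independent. The 10 genes were also chosen with earlier results of these data known, so these counts and shares are a description only. The median change of the 10 genes was -0.70 on the log2 scale (soy minus control), compared with -0.0057 for the brightest probes of all named genes, and 7 of the 9 genes other than Bhlhe41 were lower by 0.5 or more. The median remained -0.70 with Bhlhe41 set at its bound. In liver tissue, fewer cells of a type and less RNA per cell cannot be told apart.

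**Figure D1:**
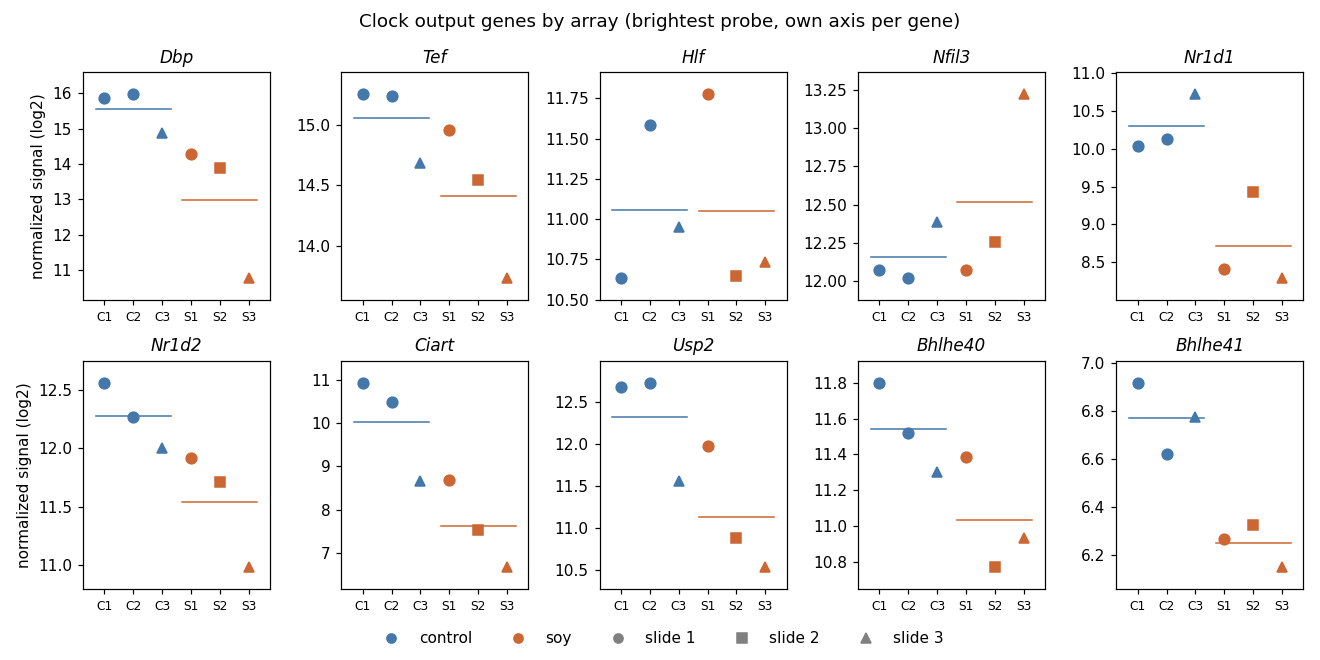
Normalized signal (log2) of each clock output gene on each array, by its brightest probe; control arrays (C1 to C3) are blue, soy arrays (S1 to S3) orange, the marker shape gives the slide and lines give group means. For Dbp, Nr1d1 and Nr1d2 every soy array lies below every control array, as do the measured values of Bhlhe41, none of them well above background in soy, whereas Hlf overlaps throughout and Nfil3 is highest on soy 3.

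Dbp, the PAR bZIP activator known for a wide daily rhythm in liver, was lower in every soy liver than in any control liver, although it did not pass the test. Its brightest probe (NM_016974) read 15.86, 15.98 and 14.87 on control arrays 1, 2 and 3 and 14.28, 13.87 and 10.77 on soy arrays 1, 2 and 3 (normalized log2 signal). Soy 3 stood far below the other two soy arrays. The group means were 15.57 ± 0.61 and 12.98 ± 1.92 (SD, n = 3 arrays per group), so Dbp was 6.04-fold lower in soy, a log2 change of -2.59 (SE 0.85, 95% interval -4.57 to -0.62, limma adjusted p = 0.3003). A second Dbp probe gave -2.62 (adjusted p = 0.288) and followed the first across the 6 arrays (Pearson's r = 0.997). Without soy 3 the change of the brightest probe was -1.49 (adjusted p = 0.245), and soy was still lower than control.

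Tef encodes the PAR bZIP activator that shares the D-box with DBP. Its brightest probe (NM_017376) read 15.26, 15.24 and 14.68 on control arrays and 14.96, 14.55 and 13.73 on soy arrays. Control 1 and control 2 were highest, soy 3 was lowest, and the groups overlapped because soy 1 exceeded control 3. The change was -0.65 (SE 0.31, limma adjusted p = 0.480), and it was -0.31 without soy 3. Its 2 other probes, both annotated to NM_153484, gave -0.72 and -0.25 (adjusted p = 0.504 and 0.641).

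Hlf, the remaining PAR bZIP activator (NM_172563), read 10.63, 11.59 and 10.95 on control arrays and 11.78, 10.65 and 10.74 on soy arrays. Its highest value was on soy 1 and its lowest on control 1, and the groups overlapped over almost their whole range. The change was -0.0044, with a 95% interval from -0.81 to 0.80 (adjusted p = 0.998), so a difference of the size seen for Tef was not detectable with 3 arrays per group. Its sign turned under several alternatives.

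Nfil3, the repressor that competes with the PAR bZIP activators at the D-box, was the one gene with a higher mean in soy. The brightest Nfil3 probe (NM_017373) read 12.07, 12.02 and 12.39 on control arrays and 12.07, 12.26 and 13.23 on soy arrays. Only soy 3 stood apart, above the other 5 arrays, and it was the array on which Dbp and Tef were lowest. The change was 0.36 (SE 0.29, 95% interval -0.31 to 1.02, adjusted p = 0.686), the other probe gave 0.43 (adjusted p = 0.557), and without soy 3 the change was 0.0039.

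Nr1d1 encodes REV-ERB alpha, the heme-binding receptor that represses Arntl. On control arrays it read 10.04, 10.13 and 10.73, and on soy arrays 8.42, 9.43 and 8.29 (NM_145434, its single probe here). The groups did not overlap, and the array order differed from that of Dbp, with control 3 highest and soy 2 highest among the soy arrays. From 10.30 ± 0.37 in control to 8.71 ± 0.63 in soy (SD, n = 3 arrays per group), the difference was -1.58 (SE 0.32, 95% interval -2.32 to -0.84), or 3.00-fold lower, and its adjusted p of 0.106 (limma) was the smallest among the 10 genes. With the processed signal of the Agilent software and 75th percentile scaling, in place of the quantile-normalized median signal, so that signal and scaling both differed, the change was -1.82 with an adjusted p of 0.0195, which would be called. That alternative called 13138 probes in all, 90.8% of them higher in soy, compared with 198 probes and 59.6% higher in the fit reported here.

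Nr1d2 encodes REV-ERB beta, which shares its elements with REV-ERB alpha. Its brightest probe (NM_011584) read 12.56, 12.27 and 12.01 on control arrays and 11.92, 11.71 and 10.99 on soy arrays. Every soy value was below every control value, by a narrow margin between control 3 and soy 1, and soy 3 was lowest. The change was -0.74 (SE 0.25, limma adjusted p = 0.317), a 1.67-fold lower signal, and -0.68 on the other probe. Without soy 3 it was -0.47.

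Ciart, also called Chrono, encodes a repressor of CLOCK and BMAL1 and has the 3 E-boxes shown in its promoter. Its brightest probe (NM_001033302) read 10.94, 10.48 and 8.66 on control arrays and 8.68, 7.54 and 6.68 on soy arrays. Control 1 and control 2 were highest, control 3 was level with soy 1 and so fell within the soy range, and soy 3 was lowest and not well above background. The means were 10.03 ± 1.20 and 7.64 ± 1.00 (SD, n = 3 arrays per group), a change of -2.39 (SE 0.66, 95% interval -3.93 to -0.85, limma adjusted p = 0.218) or 5.24-fold lower as measured. The soy mean includes the dim value of soy 3, so this fold is not exact. Without soy 3 the change was -1.91 (limma adjusted p = 0.446). A dimmer Ciart probe, well above background on 1 soy array, gave -0.91 (adjusted p = 0.318).

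Bhlhe40 and Bhlhe41 encode the DEC repressors, which bind E-boxes directly. Bhlhe40 (NM_011498) read 11.80, 11.52 and 11.30 on control arrays and 11.39, 10.77 and 10.94 on soy arrays, with control 1 highest, soy 2 lowest and an overlap between control 3 and soy 1. The change was -0.51 (SE 0.19, limma adjusted p = 0.370). Bhlhe41 was dim. Its brighter probe (NM_001271768) read 6.92, 6.62 and 6.77 on control arrays, 2 of them well above background, and 6.27, 6.33 and 6.15 on soy arrays, none of them well above background, so its soy level is only a bound. With the control mean taken as measured, a dim array included, Bhlhe41 was at least 1.12-fold lower in soy, a bound that was not tested. The limma adjusted p of 0.131 belongs to the measured change of -0.52. The measured means were 6.77 ± 0.15 and 6.25 ± 0.089, while no array had its other probe (NM_024469) well above background. With the processed signal at that scaling the adjusted p of the brighter probe was 0.00453, again from soy values that were not well above background.

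Usp2, the deubiquitinase, read 12.68, 12.73 and 11.56 on control arrays and 11.98, 10.87 and 10.54 on soy arrays (NM_198092). Control 1 and control 2 were level and highest, control 3 was below soy 1, and soy 3 was lowest. Its change was -1.19 (SE 0.43, limma adjusted p = 0.347), or 2.29-fold lower, and -0.94 on its other probe (adjusted p = 0.424).

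**Figure D2:**
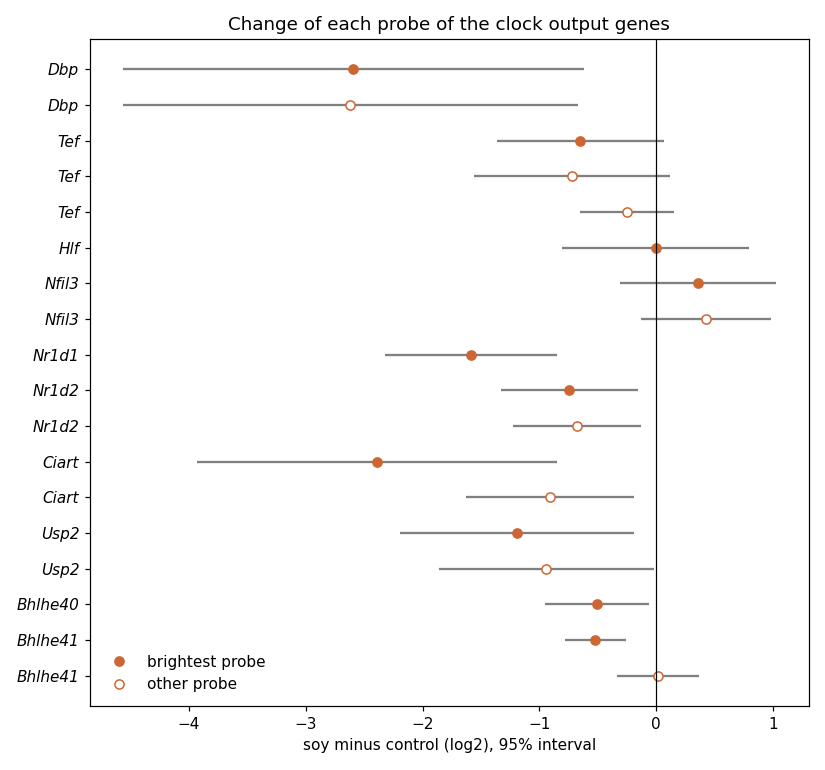
Change of each of the 18 probes (soy minus control, log2) with its 95% interval from limma; filled points are the brightest probe of a gene, open points its other probes. The intervals are unadjusted; 11 of them lie wholly below 0, none lies wholly above it, and none of the probes passed after adjustment.

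Dbp, Tef, Nr1d2, Ciart and Usp2 ordered the arrays in much the same way, and the other genes departed from that order. The mean log2 signal over the 10 genes was 11.87, 11.86 and 11.39 on control arrays 1, 2 and 3 and 11.17, 10.80 and 10.21 on soy arrays 1, 2 and 3. Control 1 or control 2 gave the highest value for 7 of the 10 genes, and soy 3 gave the lowest for 7; Bhlhe41 is in both counts, which were 6 and 6 without it. Pearson's r with the brightest Dbp probe, over the 6 arrays and with no test, was 0.98 for Nr1d2, 0.97 for Tef, 0.90 for Ciart, 0.88 for Usp2, 0.79 for Bhlhe41 (from measured values that include dim soy arrays), 0.74 for Nr1d1, 0.73 for Bhlhe40, 0.31 for Hlf and -0.92 for Nfil3. These arrays hold both diets, so a difference between the diets enters each r together with the differences among mice of one diet.

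Slides 1 and 3 held both diets, and the differences were therefore also taken within them, without a test. On slide 1, soy 1 was compared with the mean of control 1 and control 2, and on slide 3, soy 3 with control 3. Both comparisons had lower soy values for 8 of the 10 genes, all but Hlf and Nfil3, with a median over the 10 genes of -0.50 on slide 1 and -0.98 on slide 3, or -0.43 and -0.98 with Bhlhe41 at its bound. Dbp gave -1.64 on slide 1 and -4.10 on slide 3, and Nr1d1 gave -1.67 and -2.43. For Ciart the difference was -2.02 on slide 1, and on slide 3, where soy 3 was dim, the measured -1.98 is a bound. Usp2 gave -0.73 and -1.02, Nr1d2 -0.50 and -1.02, and Tef -0.29 and -0.95. For Bhlhe40 they were -0.27 and -0.36. For Bhlhe41, dim on the soy arrays, only bounds against the measured control values can be given, -0.35 and -0.17 or lower. Hlf was 0.67 higher on slide 1 and 0.21 lower on slide 3, and Nfil3 differed by 0.026 on slide 1 and 0.84 on slide 3. With slide as a fixed block in limma, the adjusted p was 0.0863 for Nr1d1 (change -1.996), 0.0626 for Ciart (-2.005), 0.155 for Usp2 (-0.85), 0.227 for Dbp (-2.69) and 0.295 for Nr1d2 (-0.72), none of them under 0.05. In the same fit, 25 probes were called over the whole array, 48.0% of them higher, and soy 2, alone on its slide, added nothing to the difference.

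**Figure D3:**
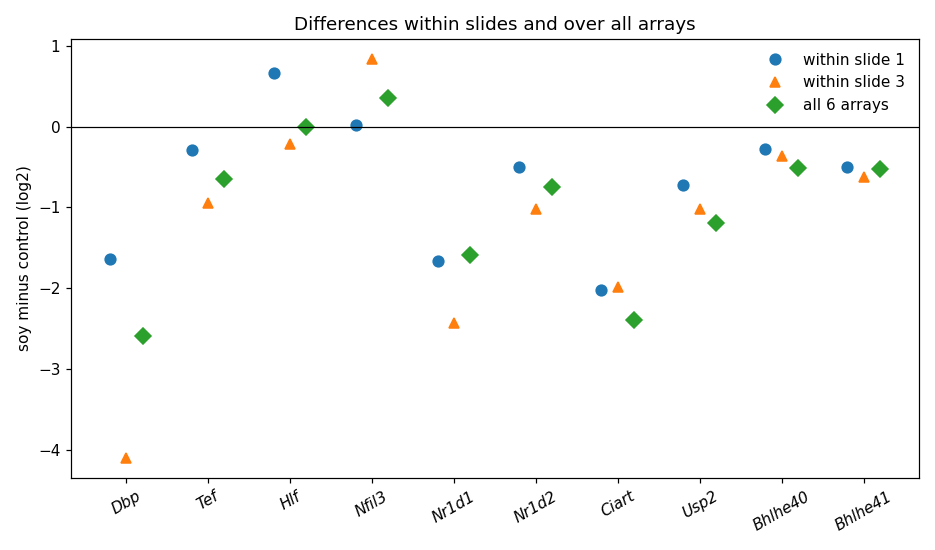
Difference between soy and control (log2) of each clock output gene within slide 1 (soy 1 minus the mean of control 1 and control 2), within slide 3 (soy 3 minus control 3) and over all 6 arrays. For 8 genes all 3 differences are below 0, those of Bhlhe41 being measured values with dim soy arrays, and Dbp has the widest gap between slides, from -1.64 to -4.10.

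The core loop itself was read from lists of its activators and repressors, none of whose genes were called. Among the activators, Arntl, Clock and Npas2, 3 of 3 were higher in soy, with a median change of 0.76. Arntl (NM_007489), which encodes BMAL1 and is repressed by the REV-ERBs, read 7.61, 7.42 and 8.66 on control arrays and 8.88, 9.48 and 10.71 on soy arrays, a change of 1.79 (SE 0.49, limma adjusted p = 0.210). All soy values of Arntl exceeded all control values and soy 3 was highest, although 2 further Arntl probes gave 0.72 and -0.0035. Clock gave 0.76 (adjusted p = 0.255), again without overlap, while its 2 other probes gave 0.59 and 0.20 with overlap, and no array had Npas2 well above background. Of the 5 repressors, 4 were lower and 1 was higher, with a median of -0.53. Per1 gave -1.04 (adjusted p = 0.431) and Per2 -0.63 (adjusted p = 0.569), both with overlapping groups, although the other Per2 probe gave -0.36 (adjusted p = 0.247) without overlap. Cry1, a late repressor of the loop, gave 0.64 (adjusted p = 0.301) without overlap, and 0.28 (adjusted p = 0.531) with overlap on its other probe.

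Genes known as direct targets of the output factors were then examined. Of 7 liver targets of the PAR bZIP factors, 3 were lower and 4 higher in soy on the brightest probe, with a median change of 0.27, and 1 was called. This was Nr1i3, which encodes the xenobiotic receptor CAR. Its second probe (NM_001243062) rose by 0.87 (adjusted p = 0.0427, limma), while the brightest probe (NM_009803) gave 0.85 with an adjusted p of 0.0880 and did not pass. With slide as a fixed block in limma the second probe gave 0.80 with an adjusted p of 0.170, so the call was lost. With slide as a random block it gave 0.86 with an adjusted p of 0.0355 and stayed called. The call was also lost without control 1, control 2, soy 1, soy 2 or soy 3 (adjusted p = 0.105, 0.152, 0.108, 0.161 and 0.142). Alas1, the rate-limiting enzyme of heme synthesis, gave -0.81 (SE 0.20, adjusted p = 0.163) without overlap, and 2 other probes gave -1.21 and -1.15. Cyp2b10, a CAR target that oxidises drugs, gave -1.38 (adjusted p = 0.561), with a control SD of 1.76 and opposite signs on slides 1 and 3. Of 8 genes that REV-ERBs repress, 6 were higher and 2 lower, with a median of 0.45, and 0 were called. Npas2, counted among the 6, was well above background on no array. The 8 include Arntl, Clock, Npas2, Cry1 and Nfil3, given above, so they are not a separate set. Among the rest, Insig2, a regulator of sterol synthesis, gave 0.55 (adjusted p = 0.536), Elovl3, a fatty acid elongase, gave -0.13 with a soy SD of 1.74, and Apoc3, an apolipoprotein, gave -0.084.

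**Figure D4:**
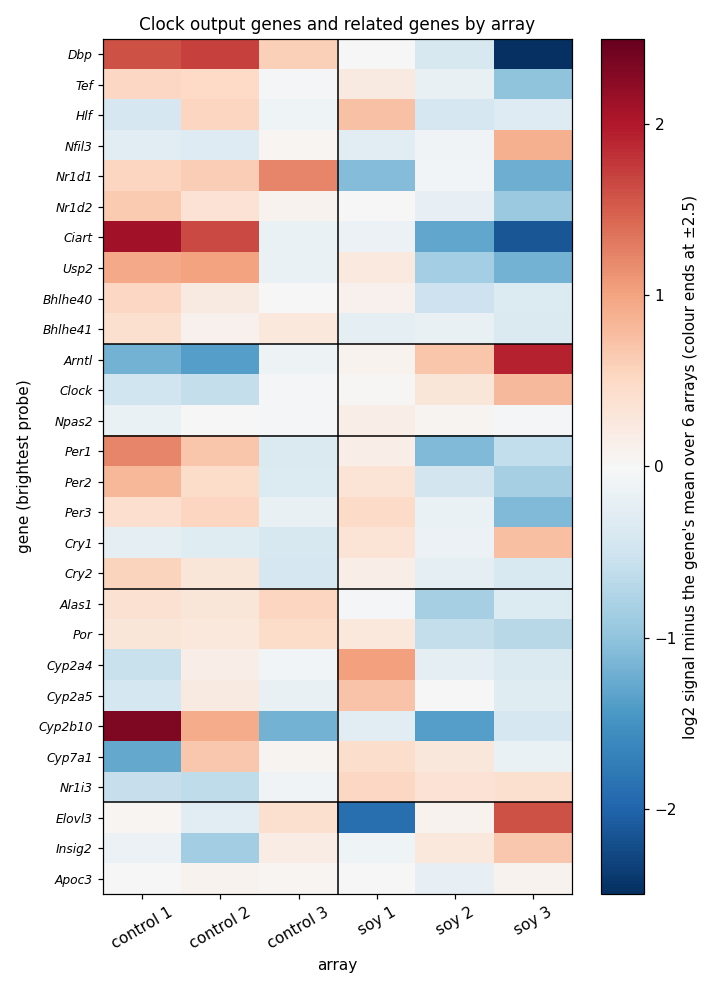
Signal of each gene on each array minus the mean of that gene over the 6 arrays (log2, brightest probe); black lines separate the clock output genes, core activators, core repressors, PAR bZIP targets and the REV-ERB targets not shown above them. Dbp, Ciart and Usp2 go from red on control 1 and control 2 to blue on soy 3, and Arntl goes the opposite way, from 7.42 on control 2 to 10.71 on soy 3.

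Markers of the cell types of liver were read on the same arrays, and none of their genes were called. Hepatocyte markers were present as the label states, with 8 of 8 well above background on all arrays, Serpina1a being the brightest, and their mean log2 signal was 17.25, 17.24 and 17.16 on control arrays and 17.13, 17.06 and 17.01 on soy arrays. Of these 8, 6 were lower in soy, with a median change of -0.10. The largest changes were -0.76 for Tat and 0.46 for Apob, both with overlap, and -0.47 for Cps1 without overlap. The order of the arrays in these means was that of the means over the 10 clock output genes, over a range that was narrower. Alb, near the top of the signal scale, read the same 18.99 on control 1, control 2 and soy 1. Whether such bright signals narrow the range was not tested. Kupffer cell markers (6 of 7 higher, median 0.15, Cd5l brightest) had means from 11.17 on control 1 to 12.01 on soy 3, and within each slide they differed by 0.15 and 0.21 at the median. Endothelial markers (3 of 6 lower, median 0.067, Clec4g brightest) ranged from 11.37 to 11.67 and stellate cell markers (4 of 6 lower, median -0.056, Dcn brightest) from 10.07 to 10.58. Cholangiocyte markers (3 of 5 higher, median 0.12, Spp1 brightest) ranged from 7.88 to 8.19, and Epcam was well above background on none. Blood cell markers (5 of 6 higher, median 0.29, Hba-a1 brightest) ranged from 10.74 to 11.56, the highest on soy 2. Markers of fat and pancreas had lower measured values in soy for 6 of 6 genes (median -0.27, Cela1 brightest), most of them dim, with means of 8.70, 8.87 and 8.62 on control arrays and 8.30, 8.53 and 8.36 on soy arrays, no array had Adipoq or Plin1 well above background, and no soy array had Prss2 or Pnlip. The part of these marker levels in the results for the clock output genes was not tested.

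The genes whose pattern over the 6 arrays was most like that of Dbp were looked for among 13424 genes outside the lists, by the brightest probe and only where it was well above background on all arrays. The highest Pearson's r was found for Jpx (0.997), Rilp (0.993), Dmgdh (0.992), Cntrl (0.990) and Pfdn2 (0.986). Their changes were smaller than that of Dbp, from -0.55 for Cntrl to -0.070 for Rilp. Among the lowest r were those of Slc17a1 (-0.990), Cpeb4 (-0.988), Tubb2a (-0.988) and Zfp518b (-0.986). Tubb2a, which encodes a beta tubulin, read 12.53, 12.38 and 13.30 on control arrays and 13.51, 13.98 and 15.32 on soy arrays, a change of 1.53 (limma adjusted p = 0.253). With 6 arrays and this many genes, values of r this high are a description only and carry no p.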

How the data were processed

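The authors scanned 1-colour arrays and deposited the output of Agilent Feature Extraction (version 11.5.1.1), which gives for every spot a median intensity and a local background intensity, neither scaled between arrays, and a processed intensity that the software had corrected. The authors' table of log2 values of the same arrays, already normalized, served as an alternative. The median intensities were background corrected (normexp, offset 50, which draws the changes of dim probes towards 0), control spots were removed, arrays were quantile normalized and log2 transformed, outlier spots were left out and spots of a probe averaged. Soy was tested against control with limma 3.58.1 in R 4.3.3, without a block, over 56605 probes. Symbols came from RefSeq accessions (assembly GRCm38.p6), which named 32994 probes. Positions from the array annotation are not given, because it used a different build from that of the promoter windows. Where no array of a group was well above background, the group's level is a bound, against the lowest signal well above background on each array. The number of arrays limits the precision.

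The 10 genes and the gene lists were chosen with earlier results of these data known. Named were all 10 genes by their brightest probe, every called gene of the lists, up to 3 genes per list with the largest change, and the 5 genes most like and most unlike Dbp. A few genes that meet the rule are left out here. Insig2, Elovl3 and Apoc3 were named outside this rule, after their values were seen, as were the brightest and the undetected markers. The lists reported here were core clock activators, core clock repressors, clock kinases and ubiquitin ligases, PAR bZIP targets, REV-ERB targets, other clock-controlled genes and markers of 7 groups of cells. The alternatives covered the background (none, or offset 16), the signal (the authors' log2 values, or the processed signal, which was scaled to the 75th percentile and so changed signal and scaling together), the scaling alone (cyclic loess, or a shift to the 75th percentile), dim probes removed, outlier spots kept, trend and robust options of eBayes, probes averaged per gene, replicate number or slide as a block, no fold limits, and each array left out. The fit was also tested on simulated data, but the outcome is not given here and no result rests on it. Whether the replicate numbers pair the samples is not known. Same-numbered deviations from the group means correlated at 0.116, -0.057 and 0.106 over 27282 probes, and differently numbered ones at -0.202 to 0.105. These values cannot decide it, since there were 3 arrays per group and same-numbered arrays shared slide 1 or slide 3 but not slide 2. Plots were drawn with Python 3.11.15, pandas 2.3.3 and matplotlib 3.10.9.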

Additional observations from a re-analysis of the deposited data

How the results depend on the processing

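Of the 10 clock output genes, 9 kept their direction under every alternative tried, with ranges of -3.25 to -1.49 for Dbp, -3.33 to -1.65 for Ciart, -1.996 to -1.37 for Nr1d1, -1.62 to -0.85 for Usp2, -0.93 to -0.47 for Nr1d2, -0.92 to -0.31 for Tef, -0.68 to -0.31 for Bhlhe40, -1.29 to -0.25 for Bhlhe41 (measured values, dim in soy) and 0.0039 to 0.58 for Nfil3 (log2); Bhlhe41 gave no value under the filter on dim probes, which removed it. Hlf changed sign with the processed signal at 75th percentile scaling (0.028), an alternative that changed signal and scaling together, with slide as a fixed block (0.29) and slide as a random block (0.038), and lay between -0.37 and 0.26 when 1 array was left out, positive without control 2, soy 2 or soy 3; the cause was not tested. The count of 0 called member genes became 2 with the processed signal so scaled (Nr1d1, and Bhlhe41 from soy values not well above background). It became 1 with the replicate block (Ciart, limma adjusted p = 0.0427, over a range of 0.0427 to 0.465 across the alternatives). In the other fits the count was 0, also whenever 1 array was left out. The replicate block changed no other member call, and whether the replicate numbers pair the samples is not known. The called probe of Nr1i3 was followed through 19 alternatives after its values were seen, and it was called in 11 (adjusted p from 0.00686 to 0.170 over all), not with an offset of 16 (0.0969), the replicate block (0.102) or slide as a fixed block (0.170), nor when any array but control 3 was left out. Of all probes, 198 were called in the reported fit, 77 with an offset of 16 and 13138 with the processed signal so scaled. The count was 299 with a 75th percentile shift of the median signal alone, and 497 with dim probes removed (fewer probes tested). It was 290 with the trend and robust options of eBayes and 78 with the replicate block. Slide as a fixed block gave 25 and slide as a random block gave 287. Leaving out 1 array gave 25 to 203 (102, 71 and 203 without control 1, 2 and 3 in turn, and 50, 25 and 27 without soy 1, 2 and 3). The processed signal so scaled called 11068 probes higher and 88 lower among 18207 well above background on no array, and 698 higher and 530 lower among 27310 well above it on all. The median change of all probes was 0.13 with it and 0.13 with the 75th percentile shift alone, and the median of the 10 genes was -0.98 with it, -0.72 with that shift and -0.71 with cyclic loess. Dim signals limit what can be said of Bhlhe41 and of Ciart on soy 3.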

Other observations

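The clock proteins are also controlled by kinases and ubiquitin ligases that set their turnover, and these differed little between the diets on the transcript level. Of 7 such genes, 6 were higher and 1 lower in soy, with a median change of 0.071 (log2), a range from -0.24 to 0.26 and 0 called (limma). The extremes were Csnk1d, a casein kinase that phosphorylates PER proteins (-0.24, adjusted p = 0.594), its paralog Csnk1e (0.26, adjusted p = 0.403) and Gsk3b (0.26, adjusted p = 0.372). On the brightest probe, Csnk1e and Gsk3b had no overlap between the groups. Their other probes overlapped, with changes of -0.062 and 0.19 for Csnk1e and 0.25 and 0.17 for Gsk3b. All 7 were well above background on all arrays.

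Of 4 further clock-controlled liver genes, 2 were higher and 2 lower, and 0 were called. Tsc22d3, which glucocorticoids also induce, gave -0.78, with -0.65 and an adjusted p of 0.546 on its other probe. The control SD of its brightest probe was 1.00, and both probes had opposite signs on slides 1 and 3. Nampt, the rate-limiting enzyme of NAD salvage, gave 0.36 (adjusted p = 0.600), and Cdkn1a, a cell cycle inhibitor, gave -0.056 (adjusted p = 0.984) with an SD of 0.98 among control and 1.21 among soy arrays.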
